A study of Mus musculus with 8 samples.

Results

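Fezf2, Bcl11b, Tle4, Sox5, Ldb2, Tshz3, Nr4a2 and Foxp2 are 8 genes for transcription regulators that are known from deep layer neurons of the cerebral cortex. They were chosen by symbol and make up 8 of the 27998 genes counted, with 1 row each. Their transcripts were followed through the cell classes of mouse CD1 cortex harvested at embryonic day 16.5 (E16.5) and read by droplet single-cell RNA-seq (10x Genomics Chromium). One group was wild type littermates (WT), and the labels give no treatment for it and do not state whether a control plasmid was used. The other group (ShhN) received a ShhN plasmid by in utero electroporation at E13.5. ShhN is the amino-terminal signalling part of sonic hedgehog, and electroporation delivers a plasmid to part of the progenitors at the ventricle, so a ShhN cortex holds cells with and without it. Each group has 4 samples, but all cells of a group lie in 1 matrix and cannot be assigned to a sample. Each group is therefore 1 library, no difference between the groups has a replicate check, and no test between them was made. Every interval below is a 95% interval that covers counting error only.

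The deep layers of the cortex, layers 5 and 6, are made first and send axons out of the cortex, layer 5 to the brainstem and spinal cord and layer 6 to the thalamus, above the transient subplate. The identity of these neurons is set by transcription factors that act on each other. Fezf2 directs the subcerebral fate of layer 5, Bcl11b (also called Ctip2) acts downstream of it in axon growth, and Sox5 orders the timing of deep layer neuron production. Tle4 is a corepressor and a marker of corticothalamic neurons, and Foxp2 and Nr4a2 mark layer 6 and subplate neurons. Tbr1, which marks layer 6 neurons, serves as a reference gene for the layers.

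After removal of doublets 6920 WT and 8076 ShhN cells were kept, with a median of 6277.5 and 6683.5 unique molecular identifiers (UMIs, single counted transcripts) per cell. The libraries share 73 cell barcodes, where 75.8 would be expected if barcodes were drawn at random. Clustering without the 8 genes gave 29 clusters, 25 of them named from markers that hold none of the 8. The deep layer neuron-like class is cluster 7, layer 5-like, with clusters 9 and 17, layer 6-like. Clusters 9 and 17 had 6 of 6 layer 6 markers raised. The name of cluster 7 is less firm, and layer 5-like below means cluster 7 and no more. Its summed layer 5 markers, 174 CPM in WT and 236 CPM in ShhN, lay below their level over all cells, 238 and 256 CPM, and near that of layer 6-like cells, 170 and 270 CPM. Layer 6 markers summed to 852 and 817 CPM in it, against 2024 and 2068 CPM in layer 6-like cells. The name rests on 3 of 7 layer 5 markers (Crim1, Etv1 and S100a10), 3 of 6 layer 6 markers were raised in it too, and under 5 of 7 other clusterings 72.7% to 98.2% of its cells were left without a name. Of the 10 leading genes of cluster 7, 1 (S100a10) was a layer 5 marker and 0 were layer 6 markers. That gene decided for layer 5 over layer 6 in its name. No cluster was named subplate. Cluster 17 was shallow, with a median of 2906 UMIs, and held 148 WT and 57 ShhN cells.

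The class held 743 WT cells, or 10.7% (10.0 to 11.5), and 797 ShhN cells, or 9.87% (9.23 to 10.5). The ratio of the shares, ShhN over WT, was 0.919 (0.831 to 1.02). Under 6 of 7 other clusterings or cell filters the ratio was lower, between 0.591 and 0.793, and in each of these 6 between 46.2% and 98.2% of the cells of cluster 7 were left without a name. Layer 6-like cells alone were 5.78% of the WT and 4.31% of the ShhN cells, of which cluster 9 made up 3.64% and 3.60% and the shallow cluster 17 2.14% and 0.706%, and layer 5-like cells 4.96% and 5.56%.

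Among the named classes each of the 8 genes had its highest level in layer 5-like or layer 6-like cells. Levels are given as CPM, a gene's UMIs per 1000000 UMIs of all genes in the cells of a class, for both libraries summed unless a library is named. In the deep layer neuron-like class the level was between 3.88 times (Nr4a2) and 8.66 times (Tle4) that of all other cells. The 1540 cells of the class held between 32.4% (Nr4a2) and 51.7% (Tle4) of the UMIs of a gene among the 14996 cells kept. In the plot of levels by class the points of both libraries lie close together in most classes. Points further apart include those of Nr4a2 in layer 5-like, layer 6-like and neurogenic progenitor-like cells. They also include those of Foxp2 in neurogenic progenitor-like, migrating neuron-like and medial cortex neuron-like cells, the last with 32 and 2 UMIs.

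**Figure D1:**
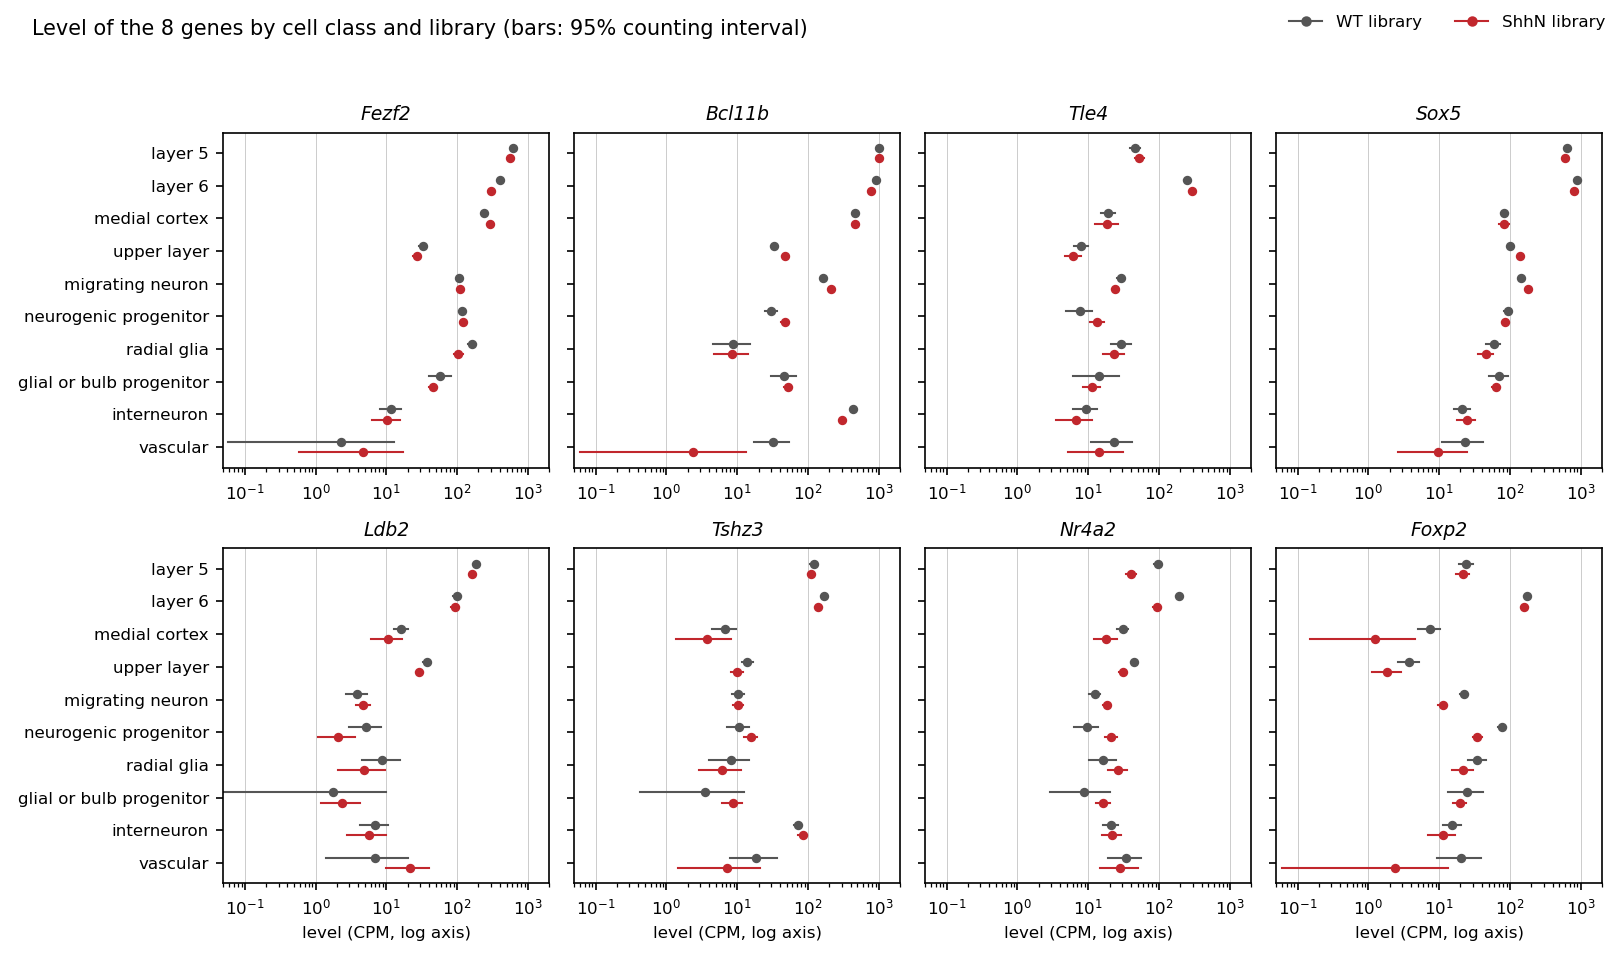
Level of each of the 8 genes (CPM, log axis) in 10 cell classes, 1 panel per gene, with the WT library in grey and the ShhN library in red. Bars are 95% counting intervals; vascular cells are the endothelial-like and mural-like cells. Fezf2, Bcl11b and Ldb2 are highest in layer 5-like cells and the other 5 genes in layer 6-like cells.

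Fezf2 (chromosome 14, 12342094 to 12348189, minus strand, GRCm38), the zinc finger factor of subcerebral neurons, was at 611 CPM in WT and 562 CPM in ShhN layer 5-like cells and at 407 and 305 CPM in layer 6-like cells. The log2 ratio of layer 6-like over layer 5-like cells was -0.59 in WT and -0.88 in ShhN. Outside the deep layers Fezf2 was at 253 CPM in medial cortex neuron-like cells, 130 CPM (118 to 144) in radial glia-like, 121 CPM (114 to 128) in neurogenic intermediate progenitor-like and 107 CPM (103 to 111) in migrating neuron-like cells. The intervals of radial glia-like and neurogenic progenitor-like cells overlap. Upper layer neuron-like cells had 29.8 CPM and GABAergic interneuron-like cells 11 CPM.

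Bcl11b (chromosome 12, 107910403 to 108003602, minus strand), a zinc finger factor of subcerebral axon growth that also marks many interneurons and striatal neurons, was at 1017 CPM in WT and 1022 CPM in ShhN layer 5-like cells. Layer 6-like cells had 907 and 770 CPM. Medial cortex neuron-like cells, the class with hippocampal markers, came next with 458 CPM, then GABAergic interneuron-like cells with 385 CPM. The levels of these 4 classes do not overlap. Radial glia-like cells had 8.65 CPM, which is not above the 17.5 CPM (9.79 to 28.9) of vascular cells. The 81 vascular cells serve here and below as a comparison class. Whether their levels are a background was not tested.

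Ldb2 (chromosome 5, 44472132 to 44799680, minus strand), a LIM domain binding cofactor found in subcerebral neurons, was at 186 CPM in WT and 163 CPM in ShhN layer 5-like cells. Layer 6-like cells had 99.6 and 93.8 CPM, and the layer 5-like level was 1.86 and 1.74 times higher. Upper layer neuron-like cells had 33.1 CPM. All other named classes with at least 50 cells were at 14.7 CPM or lower, and vascular cells were at 14.0 CPM.

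Tle4 and Foxp2 separated layer 6-like from layer 5-like cells most. Tle4 (chromosome 19, 14448150 to 14598051, minus strand) was at 250 CPM in WT and 290 CPM in ShhN layer 6-like cells, against 45.8 and 53.0 CPM in layer 5-like cells. The layer 6-like level was 5.45 times the layer 5-like level in WT and 5.47 times in ShhN. Foxp2 (chromosome 6, 14901349 to 15441977, plus strand), a forkhead factor of corticothalamic neurons, was at 174 and 160 CPM in layer 6-like cells and at 24.2 and 21.6 CPM in layer 5-like cells, a 7.20-fold difference in WT and 7.42-fold in ShhN. Tbr1, the reference gene for layer 6, differed 3.51-fold and 3.31-fold the same way, but it is 1 of the markers that named clusters 9 and 17, so its difference is a description.

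The second highest class of Foxp2 was not a deep layer class. Neurogenic intermediate progenitor-like cells had 49.3 CPM (44.8 to 54.1) and radial glia-like cells 27.6 CPM (22.0 to 34.2). Layer 5-like cells, at 22.7 CPM (19.3 to 26.5), overlapped radial glia-like cells. Foxp2 was lowest in upper layer neuron-like cells at 2.77 CPM (2.10 to 3.60), below the 11.7 CPM of vascular cells. Tle4 in turn had 40.0 CPM (28.5 to 54.7) in Cajal-Retzius cell-like cells, which overlaps its layer 5-like level of 49.8 CPM (44.8 to 55.3), and 7.03 CPM in upper layer neuron-like cells.

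Sox5, Tshz3 and Nr4a2 leaned towards layer 6-like cells less strongly. Sox5 (chromosome 6, 143828425 to 144781977, minus strand), an SRY-box factor, was at 876 CPM in WT and 816 CPM in ShhN layer 6-like cells and at 637 and 602 CPM in layer 5-like cells. It was also found in other excitatory neurons, with 167 CPM in migrating and 121 CPM in upper layer neuron-like cells, which held 4281 and 2442 of its UMIs beside the 8049 of the deep layer class. Tshz3 (chromosome 7, 36698118 to 36773553, plus strand), a teashirt zinc finger factor, was at 169 and 140 CPM in layer 6-like and 120 and 111 CPM in layer 5-like cells. GABAergic interneuron-like cells followed with 76.7 CPM, and all other named classes with at least 50 cells were at 13.9 CPM or lower. Of the clusters without a name, cluster 15 had 116 CPM of Tshz3 in WT and 124 CPM in ShhN. Cluster 10 had 39.0 and 51.2 CPM, and cluster 4 had 38.7 and 33.3 CPM.

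Nr4a2 (chromosome 2, 57106830 to 57124003, minus strand), an orphan nuclear receptor also called Nurr1, was at 189 CPM in WT and 94.3 CPM in ShhN layer 6-like cells and at 95.5 and 40.6 CPM in layer 5-like cells. Its layer 6-like level was 1.98 times the layer 5-like level in WT and 2.32 times in ShhN. Upper layer neuron-like cells had 37.6 CPM (35.0 to 40.4) and vascular cells 31.5 CPM (20.8 to 45.8), and these intervals overlap. Nr4a2 had the smallest lead of the deep layer class over other cells.

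The shares of cells with a UMI followed the levels. After every cell was thinned to 4500 UMIs, Tle4 was seen in 65.4% of WT and 68.4% of ShhN layer 6-like cells and in 15.9% and 18.8% of layer 5-like cells, against 5.71% and 6.67% of vascular cells. Without thinning the Tle4 shares were 64.5% and 76.1% in layer 6-like, 27.4% and 29.8% in layer 5-like and 17% and 14.7% in vascular cells. Median depth was 5924.5 and 6321 UMIs in layer 6-like, 8680 and 8329 in layer 5-like, and 7114 and 7913 in vascular cells. Bcl11b was seen in 92.8% of the thinned layer 5-like cells of both libraries and in 97.4% and 97.8% without thinning, against 10.6% and 2.94% of vascular cells.

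Most single deep layer cells carried several of the 8 genes. In cells thinned to 4500 UMIs, 4 or more of the 8 had a UMI in 76.8% (73.2 to 80.2) of 587 WT and 74.2% (70.8 to 77.5) of 699 ShhN deep layer neuron-like cells. The share was 0.641% and 0.703% in upper layer neuron-like cells and 2.66% and 3.90% in migrating neuron-like cells. It was 7.87% and 2.42% in medial cortex neuron-like cells, and 0 of 35 and 0 of 30 vascular cells. All 8 genes were seen in 3 WT and 2 ShhN deep layer cells. Layer 6-like cells had a mean of 4.90 and 4.61 of the 8 genes and layer 5-like cells 4.09 and 3.96. Too shallow for thinning were 156 WT and 98 ShhN cells of the deep layer class, 138 and 55 of them from cluster 17, so thinned layer 6-like values are nearly those of cluster 9.

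**Figure D2:**
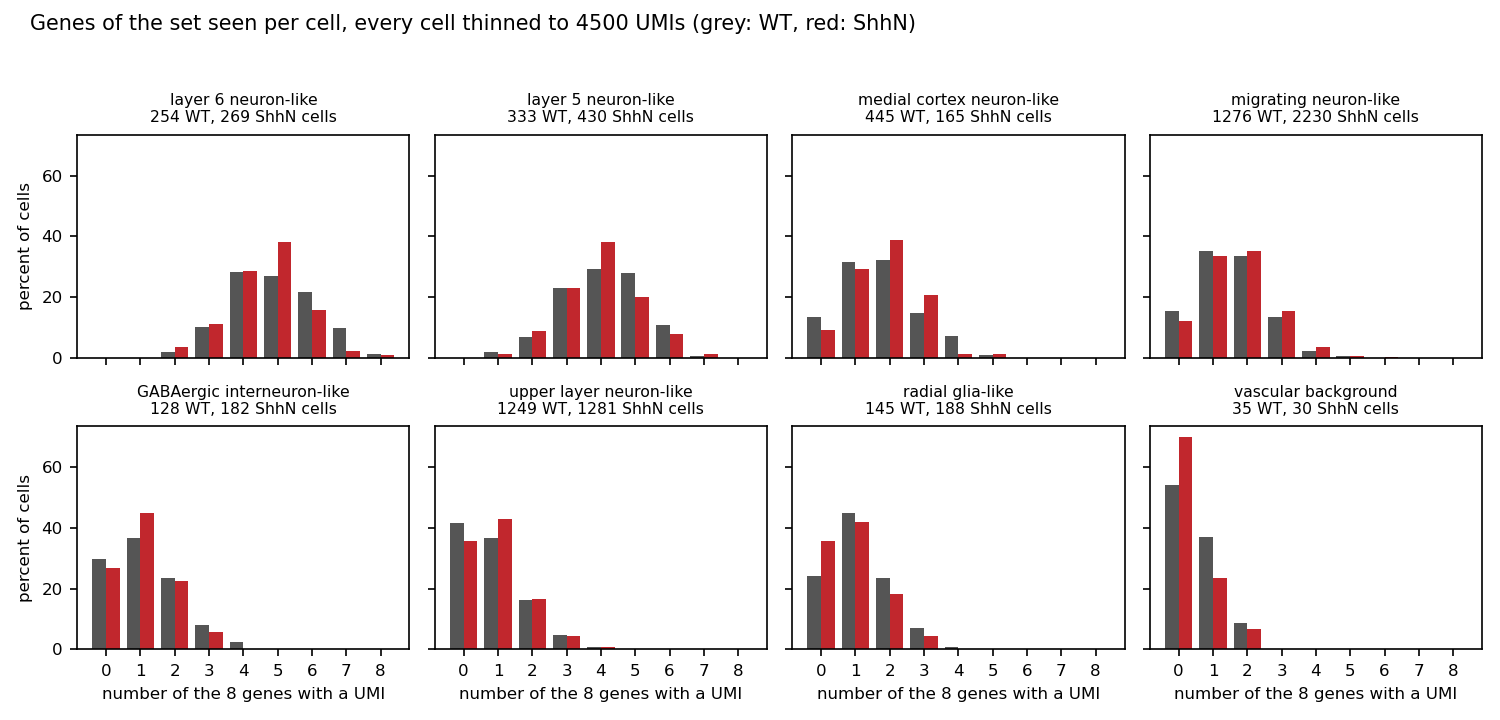
Share of cells (percent, vertical axis) by the number of the 8 genes with at least 1 UMI (horizontal axis), in cells thinned to 4500 UMIs, in 8 classes with the WT library in grey and the ShhN library in red. Layer 6-like and layer 5-like cells mostly hold 3 to 6 of the 8 genes, and the other classes 0 to 3.

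Within the deep layer class some pairs were seen in the same thinned cells more often than their separate shares would give. Tle4 and Foxp2 were found together in 88 WT and 100 ShhN cells, 1.59 and 1.63 times the product of their shares. Within layer 6-like cells alone that ratio was 1.06 and 1.03. Tle4 and Tbr1 were together 1.38 and 1.45 times as often as that product over the class, and Ldb2 and Foxp2 0.743 and 0.774 times. Fezf2 and Bcl11b, which were each seen in most cells of the class, had a ratio of 1.01 in both libraries. Pairs other than these lead no statement here, and the ratios are descriptions without a test.

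Cells outside the named deep layer class also carried part of the set. Cluster 15, without a name and led by Npy and Gucy1a3, held 165 WT and 177 ShhN cells. Fezf2 was at 530 CPM in its WT and 419 CPM in its ShhN cells, and Sox5 at 569 and 567 CPM. Layer 5-like cells had 611 and 562 CPM of Fezf2 and 637 and 602 CPM of Sox5. Over both libraries Fezf2 was lower in cluster 15, with 474 CPM (450 to 500) against 584 CPM (566 to 602). Layer 5-like cells had 1017 and 1022 CPM of Bcl11b, and cluster 15 had 150 and 180 CPM. Ldb2 had its highest level of all clusters there, at 229.7 CPM over both libraries.

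Over 25 clusters with at least 50 cells, the genes whose level followed each of the 8 most closely are given by Pearson's r of log2(CPM + 10), as a description; clusters share libraries and depth. They were Klhl25 for Fezf2 (r = 0.86), Lgi1 for Bcl11b (0.80), Hs3st4 for Tle4 (0.89), Lix1 for Sox5 (0.88), Camkv for Ldb2 (0.95), Grm3 for Tshz3 (0.89), Cntn1 for Nr4a2 (0.89) and Hsd17b11 for Foxp2 (0.78). The next in rank were Lix1 and Sox5 for Fezf2, Celf4 and Pcsk2 for Bcl11b, Nab1 and Lrrtm4 for Tle4, Ppp1r1b and Sez6 for Sox5, Sla and Sybu for Ldb2, Grip2 and Adrb1 for Tshz3, Gpr26 and Caln1 for Nr4a2, and Ptpru and Dpy19l3 for Foxp2. Hs3st4 is itself a layer 6 marker used in naming. Among the 8 genes the highest r was 0.81, for Fezf2 and Sox5, and the lowest 0.23, for Ldb2 and Foxp2.

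The ShhN and WT libraries were compared by the log2 ratio of CPM, ShhN over WT. A gene counted as measured with 50 or more UMIs in the 2 libraries together. It passed a size rule when its log2 ratio was 1 or more, or -1 or less, and its whole interval lay beyond 0.5 on that side. Over all cells 0 of the 8 genes passed, where 4.69% of 13023 measured genes did (2.85% higher, 1.84% lower). Nr4a2 had 41.1 CPM in WT and 24.9 CPM in ShhN, a log2 ratio of -0.72 (-0.82 to -0.62). Foxp2 had 24.9 and 18.2 CPM, a log2 ratio of -0.45. The other 6 lay between -0.26 (Tshz3) and 0.12 (Sox5). The median of the 8 was -0.23, beside -0.08 over all measured genes.

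Within the deep layer neuron-like class 1 of the 8, Nr4a2, passed the rule, as lower in ShhN. Of the 9332 genes measured there 0.289% passed in either direction and 0.214% as lower. Nr4a2 had 720 UMIs and 135 CPM (125 to 145) in WT against 361 UMIs and 59.4 CPM (53.4 to 65.9) in ShhN, a log2 ratio of -1.18 (-1.37 to -1.0). The 2 counting intervals do not overlap, but they hold no spread between cells or between animals. The other 7 genes had log2 ratios from -0.31 (Foxp2) to 0.05 (Tle4). Fezf2 had 526 and 472 CPM and a log2 ratio of -0.15, Bcl11b 971 and 934 CPM and -0.06, and Sox5 737 and 677 CPM and -0.12. In layer 6-like cells alone the Fezf2 log2 ratio was -0.42 (-0.56 to -0.27). Under 15 alternatives for the deep layer class Fezf2 ran from -0.38 to 0.39 and Ldb2 from -0.22 to 0.44, and neither passed. The sign of Sox5 was kept in 11 of 15 and that of Foxp2 in 12 of 15. The median of the 8 was -0.14, beside -0.10 over all genes measured in the class. Tbr1 had 145 and 141 CPM and a log2 ratio of -0.04.

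**Figure D3:**
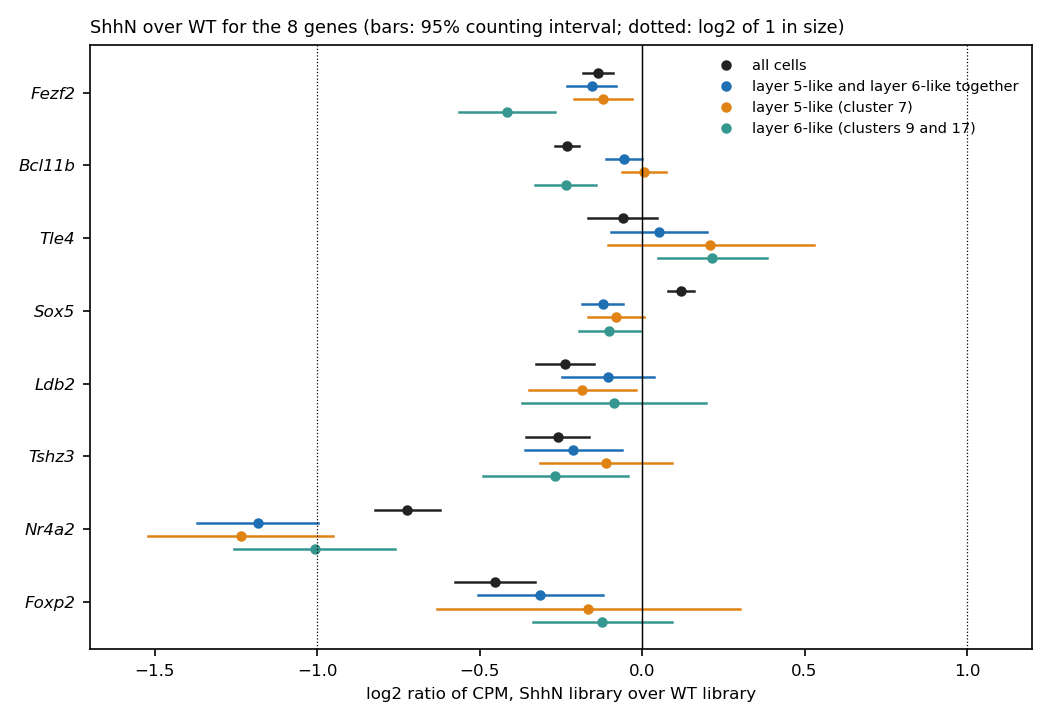
Log2 ratio of CPM, ShhN library over WT library (horizontal axis), for the 8 genes over all cells, over the deep layer neuron-like class and over its layer 5-like and layer 6-like cells; bars are 95% counting intervals and dotted lines mark a log2 ratio of 1 in size. Nr4a2 lies between -1.24 and -0.72 in the 4 sets of cells, and the other 7 genes lie between -0.45 and 0.22.

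Nr4a2 was lower in ShhN in layer 5-like and in layer 6-like cells. In layer 5-like cells it had 296 and 160 UMIs, a log2 ratio of -1.24 (-1.52 to -0.95), where 0.184% of genes passed as lower. In layer 6-like cells it had 424 and 201 UMIs and a log2 ratio of -1.01 (-1.26 to -0.76), where 0.217% of genes passed as lower. Cluster 9 alone had -1.08, and the shallow cluster 17, with 90 and 26 UMIs, -0.36 (-1.05 to 0.28). The call depends on the clustering. In 5 of 15 alternatives Nr4a2 had a log2 ratio between -0.97 and -0.49 and no longer passed. In these 5 the class held 0% to 27.2% of the cells of cluster 7, and the cause of the smaller ratios was not tested. The value of -0.49 came when the 8 genes were allowed to shape the clusters, which also left 31.9% of the cells of cluster 9 without a name. The sign was the same in 15 of 15 alternatives. Barcodes with 1 to 50 UMIs, which hold free RNA, had 43 Nr4a2 UMIs (40.8 CPM) in WT and 26 (21.8 CPM) in ShhN, and subtracting that profile left a log2 ratio of -1.19.

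Fewer deep layer cells carried Nr4a2 in ShhN. With every cell thinned, 26.7% of WT and 17.7% of ShhN deep layer neuron-like cells had a Nr4a2 UMI, against 14.3% and 6.67% of vascular cells. Without thinning the shares were 35.7% and 22.1%, against 17% and 17.6%. Cells with 5 or more Nr4a2 UMIs were 45 of 743 (6.06%) in WT and 18 of 797 (2.26%) in ShhN. They held 52.2% of the WT and 34.3% of the ShhN Nr4a2 UMIs of the class. For Bcl11b and Fezf2 the shares of such cells were 64.1% and 63.1%, and 34.1% and 31.5%.

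Nr4a2 belongs to a family of rapidly induced genes, and other such genes were read in the same cells; their part in the Nr4a2 value was not tested. In a list of 10 immediate early genes, chosen after the Nr4a2 value was seen, 8 were measured in the deep layer class. Of these, 2 passed as lower (Npas4, log2 ratio -1.30, and Egr1, -1.07) and 0 as higher, where 0.214% of all genes passed as lower. The other 6 did not pass, with Jun at -0.07 (-0.17 to 0.03). In 7 of the 8 the whole interval lay below 0, beside 15.2% of all genes measured in the class. Egr1 was at -0.21 (-0.74 to 0.33) in layer 5-like and at -1.12 (-1.42 to -0.82) in layer 6-like cells. The list had a median of -0.75, and its summed level was 1026 CPM in WT and 722 CPM in ShhN. Among the 232 WT and 338 ShhN cells with no UMI of Fos, Fosb, Egr1 or Npas4, Nr4a2 was at 162 and 64.8 CPM, a log2 ratio of -1.32 (-1.62 to -1.02). Among cells with such a UMI its log2 ratio was -1.17. The family members Nr4a1 and Nr4a3 had log2 ratios of -0.36 and -0.21 and did not pass. Over all cells 9 genes of the list were measured. Of these, 2 passed as lower (Npas4, -1.39, and Junb, -1.08) and 0 as higher, where 1.84% of all genes passed as lower. In 5 of the 9 the whole interval lay below 0, beside 38.2% of all measured genes. Jun (0.55, 0.52 to 0.59), Egr1 (0.39, 0.30 to 0.49) and Atf3 (1.03, 0.48 to 1.61) had intervals above 0, as did 19.8% of all measured genes. The summed level of the list over all cells was 655 CPM in WT and 641 CPM in ShhN.

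Markers of other cell types in the class are given beside this, where 0.289% of all genes passed the rule. Summed erythroid markers, mostly globins, were at 1135 CPM in WT and 539 CPM in ShhN, and the 3 of 6 that were measured all passed the rule as lower. Summed interneuron markers were at 40.1 and 20.7 CPM, and 0 of the 15 reached the UMIs to be measured. Migrating neuron markers were at 593 and 463 CPM with 0 of 7 measured past the rule. Subplate markers were at 82.6 and 60.7 CPM, 3 of the 6 at 0 in ShhN. Choroid plexus markers were at 10.3 and 0 CPM, with all 4 at 0 in ShhN and 3 of them also at 0 in WT, so the sum is 1 gene, which passed as lower. Layer 5 markers were at 172 and 248 CPM and layer 6 markers at 1343 and 1256 CPM. Radial glia markers were at 416 and 404 CPM with 1 of 5 measured past the rule as higher, neurogenic progenitor markers at 409 and 441 CPM with 1 of 7 as higher, and medial cortex markers at 170 and 148 CPM with 1 of 3 as lower. The part of these values in the Nr4a2 value was not tested. Cells without a UMI of the subplate gene Nxph4 had a Nr4a2 log2 ratio of -1.25, and the 76 WT and 80 ShhN cells with one had -0.74 (-1.21 to -0.28), which did not pass.

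The promoters of Nr4a2, which passed the size rule, and of Fezf2, which did not, are shown for comparison. They are RefSeq sequences of GRCm38.p6 that run from 250 bases before to 50 bases after the annotated start, 5′ to 3′ on the gene's strand. The RefSeq start of Fezf2 lies inside the GENCODE gene span given above, not at its end. Capitals mark the letters TGACG or its reverse complement CGTCA, the short form of the cyclic AMP response element, searched on both strands after the immediate early genes were seen.
Nr4a2, chr2:57123954-57124253, minus strand: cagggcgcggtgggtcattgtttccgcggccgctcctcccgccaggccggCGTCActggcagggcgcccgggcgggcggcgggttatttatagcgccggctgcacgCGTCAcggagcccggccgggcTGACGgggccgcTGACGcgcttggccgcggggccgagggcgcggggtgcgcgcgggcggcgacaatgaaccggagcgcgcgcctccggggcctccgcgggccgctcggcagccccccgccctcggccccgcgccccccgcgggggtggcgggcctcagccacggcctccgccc
Fezf2, chr14:12345816-12346115, minus strand: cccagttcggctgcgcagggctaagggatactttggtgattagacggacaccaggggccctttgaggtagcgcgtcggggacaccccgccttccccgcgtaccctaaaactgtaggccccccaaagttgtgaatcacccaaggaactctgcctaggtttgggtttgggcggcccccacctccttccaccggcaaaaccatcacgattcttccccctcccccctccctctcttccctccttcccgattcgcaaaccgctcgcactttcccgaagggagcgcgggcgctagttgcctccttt
The Nr4a2 promoter holds 4 matches and that of Fezf2 holds 0. At least 1 match is found in 20.8% and at least 4 in 0.231% of the 32851 promoters of this length. These shares were not matched for base content. G and C make up 81.7% of the Nr4a2, 61.3% of the Fezf2 and 76% of the Tshz3 sequence. Of the 8 genes 6 have an entry in the table, and Sox5, Tshz3, Bcl11b and Tle4 also hold 0. The Sox5 entry, at 143947057 to 143947356, lies inside the gene span given above, not at its end. The other motifs searched were the GLI site TGGGTGGTC, the NR4A site AAAGGTCA and the T-box site AGGTGTGA, each with 0 matches in the 6 genes and in 0.253%, 1.51% and 1.28% of all promoters. The SOX core ACAATG had 2 matches in Nr4a2, a number that 1.11% of promoters reach, and 1 in Sox5; 12.6% of promoters hold at least 1. A match of letters is a description of the sequence and was not linked to the counts.

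In the deep layer class, where 0.289% of all genes passed, related genes were read from 4 lists. Among 11 measured close paralogs of the 8 genes 1 passed the rule as lower, the Tshz3 paralog Tshz2, with 36.0 and 11.5 CPM and a log2 ratio of -1.64 (-2.06 to -1.24). The paralogs had a median of -0.25, beside -0.10 over all genes. Of 16 measured other deep layer and subplate genes 0 passed, with a median of -0.05. Of 10 upper layer and callosal genes 0 passed (median -0.04), and of 9 pan-neuronal genes 0 (median -0.06). Over all cells, where 4.69% of genes passed, 1 of 14 paralogs passed as lower, Nr4a1, with 17.7 and 8.81 CPM and a log2 ratio of -1.01. None of the 16 other deep layer and subplate genes measured over all cells passed.

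In neurogenic progenitor-like cells Nr4a2 passed the rule as higher in ShhN and Foxp2 as lower, and in migrating neuron-like cells Foxp2 alone passed, as lower. In neurogenic intermediate progenitor-like cells Nr4a2 had 29 UMIs and 9.51 CPM in WT against 122 UMIs and 21.1 CPM in ShhN, a log2 ratio of 1.15 (0.55 to 1.78). Foxp2 had 235 UMIs and 77.0 CPM in WT against 201 UMIs and 34.7 CPM in ShhN, a log2 ratio of -1.15 (-1.43 to -0.87). These 2 of the 7 measured genes passed the rule, where 5.92% of 8901 genes did (3.6% higher, 2.33% lower). The clusters that make up this class differ between the libraries. WT cells lay mostly in cluster 8 (394 of 506) and ShhN cells in clusters 13 and 16 (370 and 239 of 789), 2 clusters led by cell cycle genes.

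Inside single clusters the counts were often too low for the rule. Nr4a2 had 18 and 10 UMIs in cluster 8 and 3 and 26 in cluster 16, and Foxp2 6 and 25 in cluster 16, all under the UMIs needed to be measured, so these could not pass. Where they were measured, Foxp2 in clusters 8 and 13 and Nr4a2 in cluster 13, they did not pass. The rule was passed by 0.538% of genes in cluster 8, 0.78% in cluster 13 and 0.712% in cluster 16, where Bcl11b, with 4 and 82 UMIs, was the 1 of the 8 that passed (log2 ratio 2.22). Foxp2 had log2 ratios of -0.65 in cluster 8 and -0.40 in cluster 13, and Nr4a2 had 0.80 (-0.24 to 2.06) in cluster 13. Both Nr4a2 levels of the whole class lie below the 31.5 CPM of vascular cells. With only cells of 1500 or more genes Foxp2 was at -0.92 and did not pass, and Nr4a2 was at 1.82. With each cell given equal weight Nr4a2 was at 0.73 and did not pass.

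Migrating neuron-like cells had 22.5 CPM of Foxp2 in WT and 11.2 CPM in ShhN, a log2 ratio of -1.01 (-1.31 to -0.72). It was the 1 of 8 genes past the rule, where 1.48% of genes passed and 0.81% passed as lower. With TMM scaling it was -0.93 and with thinned cells -0.90, and it did not pass. Its clusters 0 and 5 had Foxp2 log2 ratios of -0.87 and -0.73, and in cluster 2 the gene had too few UMIs to be measured; cluster 0, at 10.1 CPM of Foxp2 over both libraries, held 527 WT and 1249 ShhN cells, while cluster 5, at 52.0 CPM, held 470 and 437. Nr4a2 was at 12.3 and 18.4 CPM there, a log2 ratio of 0.58 (0.27 to 0.90), which turned to -0.58 when the 8 genes were allowed to shape the clusters.

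**Figure D4:**
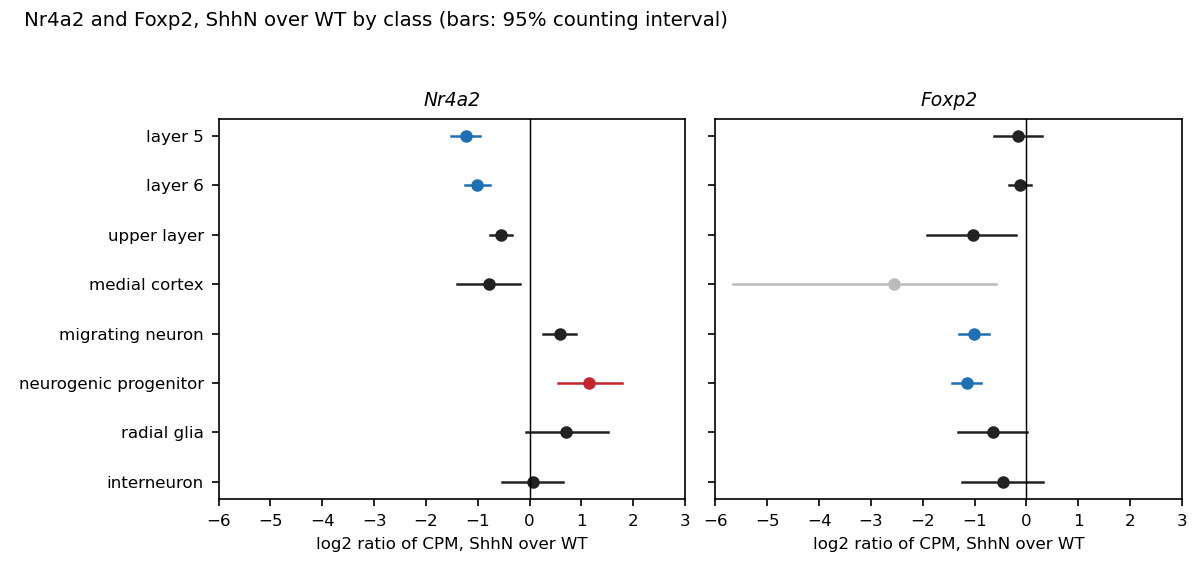
Log2 ratio of CPM, ShhN over WT (horizontal axis), of Nr4a2 and Foxp2 in 8 cell classes with 95% counting intervals. Blue marks a ratio past the size rule as lower, red as higher, black not past it, and grey under 50 UMIs. Nr4a2 runs from -1.24 in layer 5-like to 1.15 in neurogenic progenitor-like cells, and the Foxp2 ratio is below 0 in all 8, with intervals that reach past 0 in 4 of them.

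In the other classes with enough cells 0 of the 8 genes passed the rule. In upper layer neuron-like cells, where 0.789% of genes passed, Nr4a2 had 44.9 and 30.7 CPM (log2 ratio -0.55, -0.76 to -0.34), Sox5 102 and 140 CPM (0.46, 0.34 to 0.58) and Bcl11b 33.1 and 47.1 CPM (0.51, 0.30 to 0.72). The larger clusters of this class, 1 and 3, held 712 and 603 WT cells and 940 and 412 ShhN cells. Nr4a2 was at 18.3 and 17.7 CPM in cluster 1 and at 69.8 and 56.3 CPM in cluster 3. Its log2 ratios in these clusters were -0.04 (-0.45 to 0.37) and -0.31 (-0.58 to -0.05). Those of Sox5 were 0.52 and 0.25, and those of Bcl11b 0.45 and -0.42 (-0.95 to 0.10). In radial glia-like cells, where 0.871% passed, Fezf2 had 162 and 104 CPM (-0.64, -0.93 to -0.34). In GABAergic interneuron-like cells, where 2.9% passed, Bcl11b had 435 and 307 CPM (-0.50, -0.65 to -0.36). The clusters of this class differ between the libraries. Cluster 6 held 604 WT and 239 ShhN cells, cluster 19 held 164 and 37, and cluster 20 held 14 and 142. Bcl11b was at 464, 263 and 189 CPM in these clusters over both libraries. Within cluster 6 its log2 ratio was -0.26 (-0.43 to -0.10). In medial cortex neuron-like cells, where 0.533% passed, Fezf2 had 239 and 291 CPM (0.28, 0.12 to 0.44). Nr4a2 had 30.8 and 18.0 CPM there (-0.77, -1.41 to -0.19). In glial or olfactory bulb progenitor-like cells, with 66 WT and 598 ShhN cells, 1.74% passed. The Nr4a2 log2 ratio was 0.89 (-0.40 to 2.56) there, 0.70 (-0.07 to 1.51) in radial glia-like and 0.07 (-0.53 to 0.65) in GABAergic interneuron-like cells.

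The unnamed clusters 4, 10 and 15 each had 1 of the 8 past the rule. In cluster 4 (339 WT and 654 ShhN cells, 0.346% of genes past the rule) Sox5 had 68.8 and 155 CPM, a log2 ratio of 1.17 (0.94 to 1.40). In cluster 10 (371 and 127 cells, led by Nefl and Nefm, 0.457%) Bcl11b had 193 and 82.0 CPM, a log2 ratio of -1.23 (-1.59 to -0.90). In cluster 15 (0.224%) Tle4 had 12 and 48 UMIs, 8.17 and 32.2 CPM, a log2 ratio of 1.98 (1.04 to 3.02). Nr4a2 did not pass in clusters 4, 10 and 15. Its log2 ratios there were -0.99 (-1.53 to -0.45), -0.93 (-1.45 to -0.44) and -0.72 (-1.48 to 0.02). The cells of these clusters did not enter the deep layer class.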

How the data were processed

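The authors deposited, per the file headers, 1 matrix of whole-number UMI counts per group, with 27998 genes and 737280 barcodes. Cell Ranger, StringTie, Seurat 3 and the mm10 genome are named per the submitters' processing notes, with roles not given here. The matrix marked control was read as WT and the one marked experimental as ShhN. They hold 63760199 (WT) and 69470062 (ShhN) UMIs, of which 72.8% and 82.5% lie in called cells.

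Barcodes were ranked by UMIs, and cells were those above 10% of percentile 99 among the first 3000 (2333 UMIs in WT, 2291 in ShhN) with at least 800 genes and at most 10% mitochondrial UMIs. Scrublet (expected rate 6%) marked 296 and 241 doublets, which were removed. With scanpy 1.11.5, 2000 variable genes (without the 8, hedgehog, globin, mitochondrial and sex-linked genes), 30 components and 15 neighbours gave Leiden clusters (leidenalg 0.10.2, resolution 1). A name needed 3 markers, each in 10% of cells and 1.5-fold raised, out of 22 lists, and was withheld where another class led the 10 leading genes. The scoring was adjusted after clusters were seen, so that layer 5, layer 6 and subplate lists could name a class of their own.

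Counts of all cells in a class were added up within each library. Intervals are exact: Poisson for CPM, conditional binomial for ratios, Clopper-Pearson for shares. The size rule was run on simulated Poisson counts drawn from the summed profile of both libraries. Such counts hold no spread between animals, so they cannot show how often the rule is passed between real libraries. Thinning drew 4500 UMIs per cell. A count of 0 allows up to 3 counts of the total. TMM factors came from edgeR 4.0.16. Named genes are the 8, the reference gene Tbr1, the 3 genes most alike each of the 8 (among genes with at least 200 UMIs), and list genes past the size rule; 1 further gene is not reported here. The 8 genes, the lists and the alternatives were chosen with earlier results of these data known. The immediate early genes and the motif search were added after seeing the data. Gene coordinates are from GENCODE on GRCm38.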

Additional observations from a re-analysis of the deposited data

Results flagged for a closer look

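Among the named classes Nr4a2 passed the size rule in opposite directions. Bcl11b did so between 2 single clusters, 16 (2.22) and 10 (-1.23). The log2 ratio, ShhN over WT, was -1.18 in deep layer neuron-like cells, where its layer 5-like part had -1.24 and its layer 6-like part -1.01. In neurogenic intermediate progenitor-like cells it was 1.15. The WT and ShhN cells of that progenitor class lie mostly in different clusters, and Nr4a2 was measured in 1 of its 3 clusters, cluster 13, where its log2 ratio was 0.80 and did not pass. The difference between the classes was not tested, since each group is 1 library.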

How the results depend on the processing

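No paired analysis was possible because the 4 samples of a group share 1 matrix and cells carry no sample number. Depth limits single classes: genes under 50 UMIs could not pass the size rule, and intervals hold no spread between cells or between animals. Over all cells 0 of the 8 genes passed the size rule under every alternative run. In the deep layer class the count of 1 became 0 with at least 1500 genes per cell, at most 5% mitochondrial UMIs, Leiden resolution 0.5, the 8 genes among the variable genes, or the WT library clustered alone; each left 72.7% to 98.2% of cluster 7 unnamed. The share ratio of 0.919 was 0.667, 0.793, 0.655, 0.591 and 0.734 under these 5 in that order, and 0.720 at resolution 2. In neurogenic progenitor-like cells the count of 2 became 1 with at least 1500 genes, resolution 0.5, the 8 genes allowed, equal weight per cell, at least 200 UMIs, or cluster 16 alone, 0 in cluster 8 and in cluster 13 alone, and 5 with free RNA subtracted. In migrating neuron-like cells the count of 1 became 0 with TMM scaling and with thinned cells and 2 with free RNA subtracted. The cause was not tested. Among 374 alternatives for single genes 280 stayed within the counting interval, 94 moved and 0 called values changed sign. TMM scaling moved log2 ratios by 0.13 in neurogenic progenitor-like, 0.10 in layer 6-like and less than 0.1 in the other classes read.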

Other observations

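In the ShhN library some cells carried Shh transcripts, which the plasmid can supply. Among the excitatory neuron classes 250 cells had at least 3 Shh UMIs and 4347 had 0, with median depths of 6929.5 and 6367 UMIs. Fezf2, the layer 5 factor, was at 62.4 CPM (51.5 to 74.9) in cells with Shh and 158 CPM (154 to 163) in cells without. Tle4, the corticothalamic corepressor, was at 13.6 and 41.2 CPM, Foxp2 at 7.05 and 20.3 CPM and Bcl11b at 169 and 305 CPM. The 2 sets hold the classes in different shares, with 18 of the 250 and 759 of the 4347 cells in the deep layer class, so these levels compare different mixtures of cells. Ldb2 was at 45.6 CPM (36.4 to 56.4) and 37.2 CPM (35.0 to 39.5), intervals that overlap, and Nr4a2 at 24.4 and 30.2 CPM.

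Only 18 deep layer neuron-like cells had at least 3 Shh UMIs, against 759 with 0. Bcl11b was at 934 and 936 CPM in these, Fezf2 at 357 and 476 CPM and Sox5 at 541 and 682 CPM. Nr4a2 had 3 UMIs in the 18 cells, 17.8 CPM (3.68 to 52.2), against 60.7 CPM in the others. These are cells of 1 library and the differences have no test.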
